A study of Oryza sativa with 12 samples.

Results

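Floral organ identity genes encode the transcription factors that decide what each organ of a flower becomes. The 9 described here, of 13674 genes listed in the deposited tables, were found by the gene names OsMADS7, OsMADS24, OsMADS4, MADS14, MADS58, LHS1, MFO1, SPW1 and DL, and each name matched 1 gene. They were measured by RNA sequencing of total RNA from leaves of the rice (Oryza sativa) varieties QJ10 and LJ31, called QJ and LJ below. The groups were QJ leaves stressed with bicarbonate salt-alkali (200 mmol/L), QJ control leaves, LJ leaves stressed in the same way and LJ control leaves, with 3 libraries in each. The labels call the 3 libraries biological replicates but do not say which plants they came from, so the p-values below measure the spread between these libraries. Plant age, leaf position and the length of the stress are not stated in the sources used here.

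In grass flowers, as in other flowering plants, organ identity is set by combinations of MADS-box proteins that bind DNA in complexes. A-type genes of the APETALA1 family act in the meristem and the outer organs, B-type genes in the lodicules and stamens, and C-type genes in the stamens and carpels. E-type genes of the SEPALLATA family supply the partners that join the other classes into complexes. In rice, carpel identity also needs DL, a YABBY gene that is known in leaves for forming the midrib.

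Values are FPKM, fragment counts scaled by transcript length and by the library total, which allows levels to be set side by side between genes. Each deposited table holds only the genes that the authors called different in 1 comparison, at an adjusted p under 0.05 and a change of at least 2-fold (1 on the log2 scale). A gene therefore has values in a group only if it was called in a comparison with that group. For 7 of the 9 genes all 12 libraries have values. OsMADS4 and MADS58 have none for stressed QJ leaves, and their level there was not analysed here. The names of the 2 stress tables carry the other variety than their column headers do. The headers were followed, and every value listed in more than 1 table was the same in each, so the naming of the varieties rests on the headers alone. The listed FPKM of a library summed to 302273 to 304097 in stressed QJ leaves, 310974 to 312214 in QJ controls, 521586 to 522465 in stressed LJ leaves and 375808 to 376025 in LJ controls. Each group has its own set of listed genes, so these sums cannot be set side by side between groups. Read totals are not given, so the depth behind the FPKM values is unknown.

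All 9 genes had their highest mean in the LJ control leaves. How many of all listed genes did so was not counted, here or for the gene lists below. The 9 genes differed in what was found elsewhere. OsMADS7, OsMADS24, OsMADS4, MADS58 and DL had a mean under 1 FPKM in every other group with values, and are called restricted to the LJ controls. MADS14, LHS1, SPW1 and MFO1 were also found in other groups at 1 FPKM or more. The split was made from the levels themselves and is a description. Of the 8461 listed genes with values in the LJ controls and in 2 or 3 other groups, 1007 (11.9%) met the same rule, against 5 of these 9. Among genes with values in all 4 groups the rule was met by 6.47% of 5534 genes and by 3 of 7 of the floral genes, and among genes with values in 3 groups by 22.2% of 2927 genes and by 2 of 2. The members nearest to the line were OsMADS7, at 0.967 FPKM in stressed LJ leaves, and MFO1, at 1.2 FPKM in the same leaves. Without the library of stressed LJ leaves numbered 3, OsMADS7 was over the line and 4 genes were restricted.

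**Figure D1:**
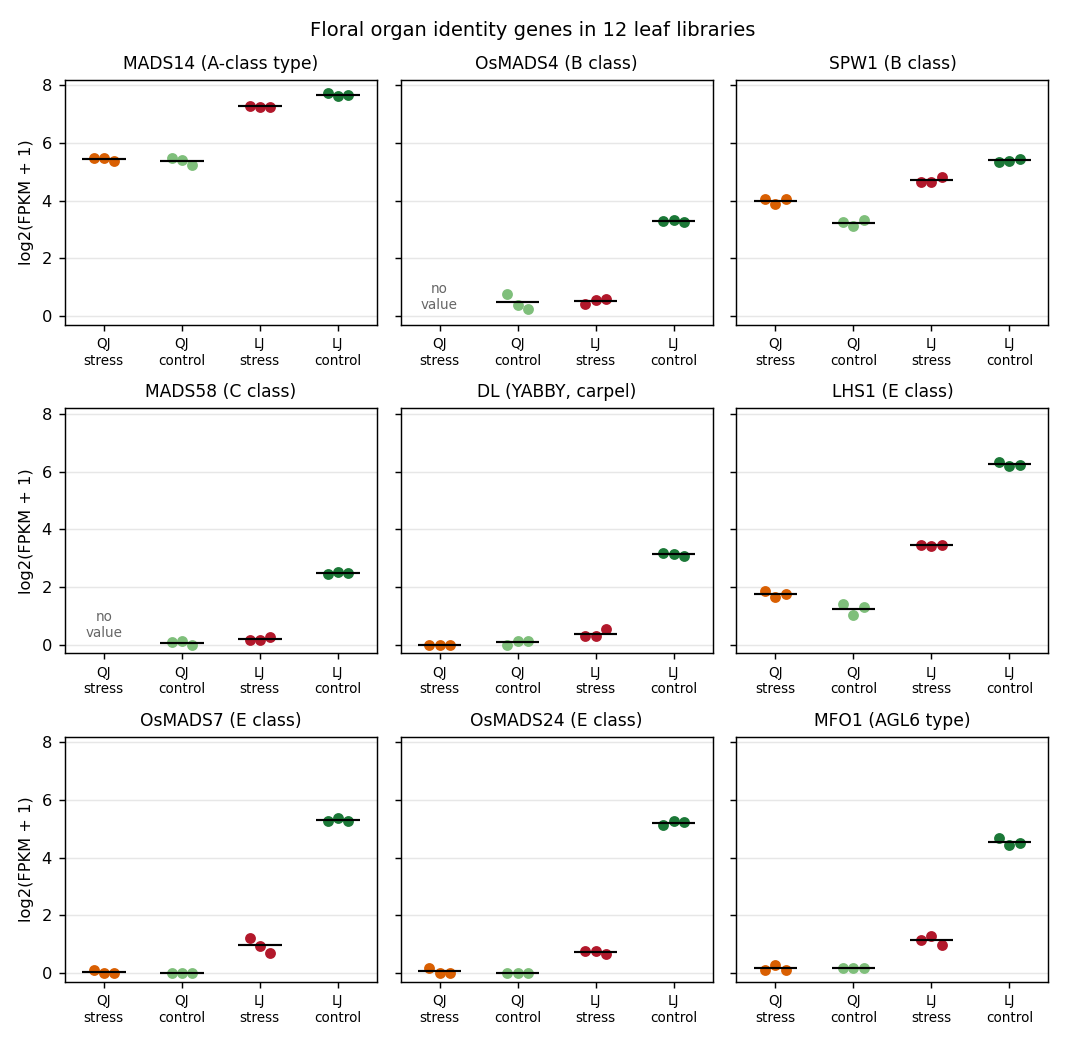
FPKM of the 9 floral organ identity genes in each library, as log2(FPKM + 1), with groups from left to right as stressed QJ, QJ controls, stressed LJ and LJ controls; points are libraries and bars are group means. OsMADS7 sits between 37.36 and 40.40 FPKM in LJ controls and between 0.63 and 1.33 FPKM in stressed LJ leaves, while MADS14 stays above 37 FPKM in every library of every group.

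Among the restricted genes, the pair with the highest level was OsMADS7 and OsMADS24, both E-type SEPALLATA genes that are known to act redundantly in inner flower organs. OsMADS7 (Os08g0531700) had 0.08, 0 and 0 FPKM in the 3 libraries of stressed QJ leaves and was listed at 0 in all 3 QJ controls. It had 1.33, 0.94 and 0.63 FPKM in stressed LJ leaves and 37.59, 40.40 and 37.36 FPKM in LJ controls. The LJ controls stood far above every other library, and the stressed LJ libraries were above all QJ libraries. OsMADS24 (Os09g0507200), named OsMADS8 elsewhere, had 0.13, 0 and 0 FPKM in stressed QJ leaves and was listed at 0 in QJ controls. It had 0.72, 0.72 and 0.59 FPKM in stressed LJ leaves and 33.77, 37.27 and 37.18 FPKM in LJ controls. Each library of LJ controls had slightly more OsMADS7 than OsMADS24, by a ratio of 1.07 ± 0.056 (SD, n = 3), and the 2 genes lay side by side in level in the stressed LJ leaves too, at a ratio of 1.41 ± 0.40. The 2 genes are close paralogs, and how the authors assigned reads that match both is not stated.

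OsMADS4 (Os05g0423400) is one of the pair of PISTILLATA-type B genes of rice, which pair with SPW1 to specify lodicules and stamens. It had 0.71, 0.32 and 0.20 FPKM in QJ controls, 0.33, 0.46 and 0.52 FPKM in stressed LJ leaves and 8.93, 9.10 and 8.56 FPKM in LJ controls. The QJ controls and the stressed LJ leaves overlapped, and the LJ controls were above both. MADS58 (Os05g0203800), a C-type gene known for ending the growth of the flower meristem, was the lowest of the 9 in the LJ controls. It had 0.07, 0.08 and 0 FPKM in QJ controls, 0.13, 0.13 and 0.20 FPKM in stressed LJ leaves and 4.40, 4.77 and 4.53 FPKM in LJ controls. DL (Os03g0215200) was listed at 0 in all 3 stressed QJ libraries and had 0, 0.08 and 0.08 FPKM in QJ controls. DL had 0.23, 0.22 and 0.45 FPKM in stressed LJ leaves and 8.09, 7.86 and 7.49 FPKM in LJ controls. For OsMADS4, MADS58 and DL, only the LJ control libraries were above 1 FPKM.

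Of the genes also found elsewhere, MADS14 had the highest level. MADS14 (Os03g0752800) is an APETALA1-like gene that is known to be switched on when the shoot apex turns to flowering and that, unlike most of the others, is also known to be expressed in leaves. It had 43.91, 44.24 and 40.81 FPKM in stressed QJ leaves and 44.10, 42.00 and 37.15 FPKM in QJ controls. It had 157.12, 151.28 and 153.27 FPKM in stressed LJ leaves and 211.09, 200.28 and 200.54 FPKM in LJ controls. The QJ groups overlapped, while the stressed LJ leaves were below the LJ controls and both LJ groups were above both QJ groups.

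SPW1 (Os06g0712700), named OsMADS16 elsewhere, is the APETALA3-type B gene of rice, and its loss turns lodicules into palea-like organs and stamens into carpels. It had 15.68, 13.86 and 15.65 FPKM in stressed QJ leaves and 8.61, 7.75 and 8.97 FPKM in QJ controls. SPW1 had 24.21, 24.15 and 27.52 FPKM in stressed LJ leaves and 39.60, 41.15 and 42.94 FPKM in LJ controls. No 2 groups overlapped. The stressed leaves were above the controls in QJ and below them in LJ.

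LHS1 (Os03g0215400), named OsMADS1 elsewhere, is an E-type gene that shapes the lemma and palea and keeps the flower meristem on course. It had 2.66, 2.13 and 2.40 FPKM in stressed QJ leaves and 1.63, 1.04 and 1.48 FPKM in QJ controls. LHS1 had 10.05, 9.69 and 10.03 FPKM in stressed LJ leaves and 79.10, 72.99 and 74.45 FPKM in LJ controls. As for SPW1, the 4 groups did not overlap and the order of stressed and control leaves was opposite in the 2 varieties. MFO1 (Os02g0682200), named OsMADS6 elsewhere, is an AGL6-type gene that acts in the palea, lodicules and carpels. It had 0.07, 0.22 and 0.07 FPKM in stressed QJ leaves and 0.14 FPKM in each QJ control. MFO1 had 1.21, 1.41 and 0.98 FPKM in stressed LJ leaves and 24.47, 20.69 and 22.09 FPKM in LJ controls. It was therefore near the restricted genes in pattern, with QJ leaves close to 0.

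By mean FPKM, the order in the LJ controls was MADS14 (204 ± 6.17), LHS1 (75.5 ± 3.19), SPW1 (41.2 ± 1.67), OsMADS7 (38.5 ± 1.69), OsMADS24 (36.1 ± 2.00), MFO1 (22.4 ± 1.91), OsMADS4 (8.86 ± 0.276), DL (7.81 ± 0.303) and MADS58 (4.57 ± 0.188; SD, n = 3 each). The libraries of SPW1 and OsMADS7 overlapped, and those of OsMADS7 and OsMADS24 were apart by under 0.1 FPKM at their nearest, a gap smaller than either spread. The other neighbours in that order did not overlap. In the stressed LJ leaves the order was MADS14, SPW1 and LHS1, followed by MFO1, OsMADS7 and OsMADS24, whose neighbours overlapped, and then by OsMADS4 and DL, which also overlapped, with MADS58 last. In both QJ groups only MADS14, SPW1 and LHS1 were above 1 FPKM, in that order.

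Stress in LJ leaves was the comparison in which 7 of the 9 genes fell to a small part of their control level. Stressed LJ leaves kept 1.88% of the control mean of OsMADS24, with 1.58% to 2.13% between the extreme pairs of libraries. They kept 2.51% for OsMADS7, 3.36% for MADS58, 3.84% for DL, 4.93% for OsMADS4, 5.35% for MFO1 and 13.1% for LHS1. SPW1 and MADS14 kept most of their level, at 61.3% and 75.4%. Of the 7326 listed genes with values in both LJ groups and at least 1 FPKM in the controls, the median gene kept 66.0%, and 525 genes (7.17%) kept under 10%, against 6 of the 9 floral genes. In bulk leaf RNA, fewer cells that express a gene and less RNA per cell cannot be told apart.

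**Figure D2:**
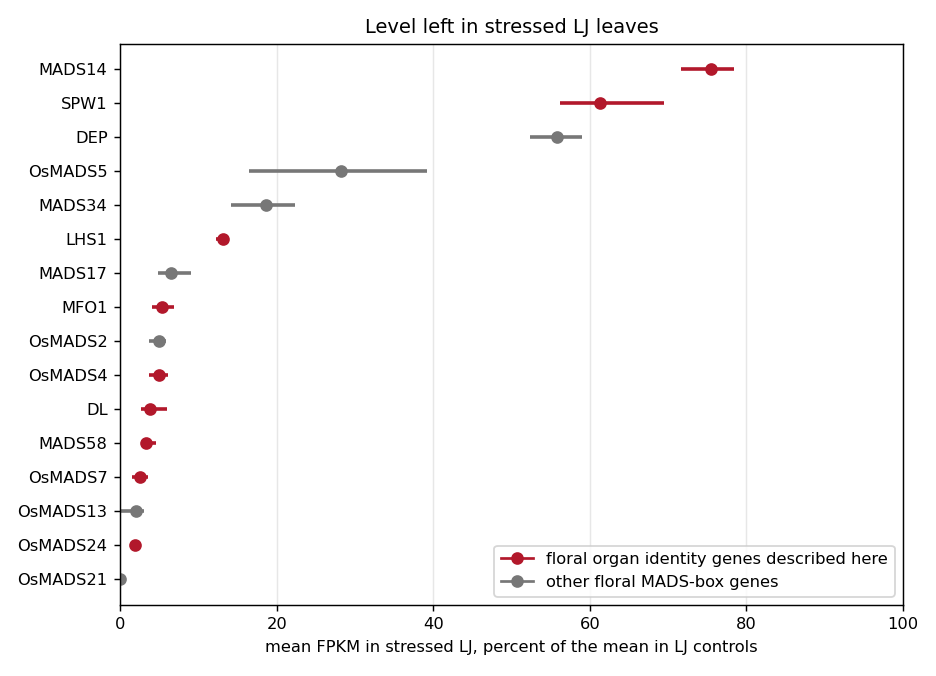
Level in stressed LJ leaves as a percent of the LJ control mean for the 9 floral genes and the other floral MADS-box genes with values in both groups, on a linear axis; points are ratios of means and lines run from the lowest stressed over the highest control library to the highest stressed over the lowest control library. OsMADS24 and OsMADS7 lie at 1.88% and 2.51%, LHS1 at 13.1%, and SPW1 and MADS14 at 61.3% and 75.4%.

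The differences were tested with limma on log2(FPKM + 1), a scale that understates the change of genes near 0, with Benjamini-Hochberg adjustment over all genes tested in the table. In stressed against control LJ leaves, 7 of the 9 genes were listed and all 7 of those were lower and passed. Because the authors had selected the listed genes on this same contrast, 99.7% of the 5990 genes tested passed, 50% of them as lower, and the count of 7 carries little information beyond the sizes. Of the 7 genes, 6 met the filter of 1 FPKM in 3 libraries only through the LJ controls and so had to differ. OsMADS24 fell by 4.47 on the log2 scale (SE 0.0813, adjusted p = 9.56e-10) and OsMADS7 by 4.34 (SE 0.130, adjusted p = 1.25e-08). LHS1, which met the filter without the controls, fell by 2.81 (SE 0.0483, adjusted p = 7.14e-10). The other 4 fell by between 2.27 for MADS58 and 3.41 for MFO1, with adjusted p values up to 5.17e-08. The median over the 7 was -2.81. Over all genes tested it was -0.54, and 0.54 with a filter on the mean over libraries. Since the listed genes changed at least 2-fold, that median falls in the gap between the directions and is no background. In the authors' deposited table, whose method is not stated, the log2 changes were -5.59 for OsMADS24, -5.17 for OsMADS7, -4.72 for MADS58 and -2.79 for LHS1.

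MADS14 and SPW1 are not in that table. A single limma fit of all 4 groups, on the 5170 genes that passed the filter with values in all 12 libraries, gave their stress differences. This fit was added after the data had been seen, and its genes are no random sample, since each was called by the authors in at least 1 comparison. In it MADS14 fell by 0.40 in stressed LJ leaves (SE 0.0552, adjusted p = 1.76e-05), which is 1.32-fold, and SPW1 by 0.69 (SE 0.0729, adjusted p = 1.61e-06), which is 1.61-fold. All 7 floral genes in this fit were lower and passed, where 45.3% of all genes passed as lower. Of the 7, OsMADS7, OsMADS24, MFO1 and DL (4 genes) met the filter only through the LJ controls and had to be lower, so the 7 of 7 is a description.

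In QJ leaves the same stress left a different picture. None of the 9 genes is in the authors' table of stressed against control QJ leaves. In the fit of all 4 groups, 2 of the 7 genes with values, SPW1 and LHS1, rose, where 42.6% of all genes tested passed as higher and 33.6% as lower. SPW1 averaged 15.1 ± 1.04 FPKM in stressed QJ leaves and 8.44 ± 0.627 FPKM in QJ controls (SD, n = 3 each), 0.77 higher on the log2 scale (SE 0.0729, adjusted p = 6.71e-07) or 1.70-fold. LHS1 averaged 2.40 ± 0.265 FPKM in stressed QJ leaves and 1.38 ± 0.307 FPKM in QJ controls, 0.52 higher (SE 0.0958, adjusted p = 0.000303) or 1.43-fold. MADS14 averaged 43.0 ± 1.89 FPKM in stressed QJ leaves and 41.1 ± 3.56 FPKM in QJ controls. Its difference of 0.07 had a 95% interval from -0.05 to 0.19 and did not pass (adjusted p = 0.293). OsMADS7, OsMADS24, MFO1 and DL differed by -0.07 to 0.06 with adjusted p values from 0.438 to 0.815, on levels of at most 0.22 FPKM. Centring each library on its median moved the 4-group differences of these genes down. SPW1 (0.50) and LHS1 (0.25) still passed as higher, while MADS14 (-0.20), OsMADS24 (-0.21), MFO1 (-0.29) and DL (-0.34) then passed as lower. OsMADS24 was listed at 0 in every QJ control and cannot be lower in stressed QJ leaves. For OsMADS24, MFO1 and DL, all near 0, these calls come from the medians taken off and are not read as lower levels. OsMADS7 had 0.04 without and -0.23 with that centring and did not pass in either. Single libraries also set the sign of these small differences. Without stressed QJ library 1, OsMADS7 and OsMADS24 were at 0 in both groups, and without stressed QJ library 1 or 3 MFO1 was at 0.0032. Without QJ control library 3, MADS14 was at -0.0026.

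The difference between the varieties in their stress change was tested as an interaction over the 12 libraries. All 7 genes with values passed, and in all 7 the change in QJ was the higher one, where 66.4% of the 5170 genes tested passed and 41.4% passed with QJ higher. OsMADS7, OsMADS24, MFO1 and DL entered this test only through the LJ controls, so their difference had to appear, and the test bears on LHS1, SPW1 and MADS14. The difference was 4.53 for OsMADS24, 4.38 for OsMADS7, 3.39 for MFO1, 3.32 for LHS1, 2.69 for DL, 1.45 for SPW1 and 0.47 for MADS14 on the log2 scale. The adjusted p values ran from 5.57e-12 for OsMADS24 to 0.00017 for MADS14. For OsMADS7, OsMADS24, MFO1 and DL nearly all of it came from the LJ side, since their QJ levels were near 0 in both groups. SPW1 and LHS1 moved in opposite directions in the 2 varieties. With each library centred on its median, the difference for MADS14 was 0.17 and no longer passed (adjusted p = 0.09).

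**Figure D3:**
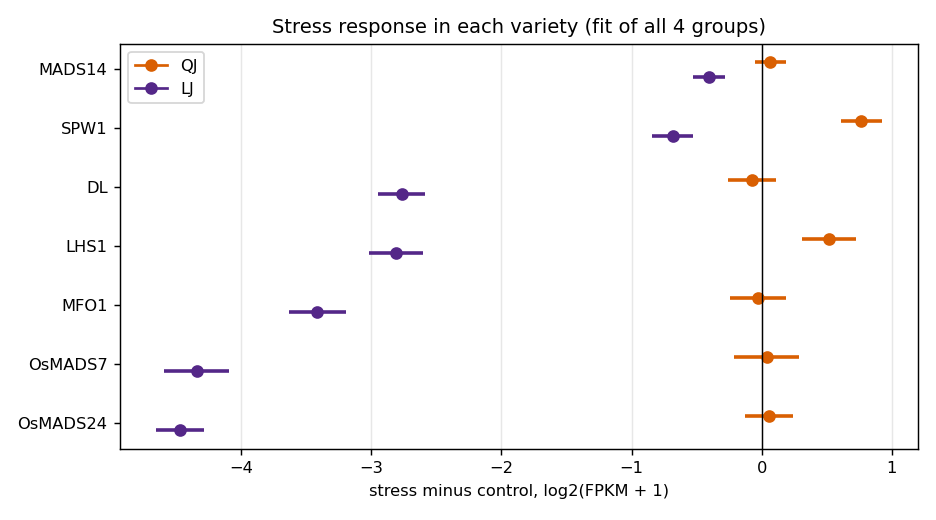
Log2 difference of stressed minus control leaves on log2(FPKM + 1) for QJ and LJ, for the 7 floral genes with values in all 12 libraries, from the limma fit of all 4 groups; bars are 95% intervals. SPW1 is above 0 in QJ (0.77) and below 0 in LJ (-0.69), and OsMADS7 and OsMADS24 lie near 0 in QJ and below -4 in LJ.

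Between the varieties, QJ controls were below LJ controls for 9 of 9 genes, all of which passed, where 99.7% of the 6108 genes tested passed and 68.6% passed with QJ lower. Of the 9 genes, 6 met the filter only through the LJ controls. The log2 difference of QJ minus LJ controls was -2.29 for MADS14 (SE 0.0614, adjusted p = 9.24e-09), which is 4.88-fold lower in QJ. It was -2.16 for SPW1 (SE 0.0660, adjusted p = 1.85e-08), which is 4.48-fold lower. For LHS1 it was -5.01 (SE 0.101, adjusted p = 2.22e-09), and its plain ratio of means, LJ controls over QJ controls, was 54.6. For OsMADS7 and OsMADS24, listed at 0 in every QJ control, the fitted differences of -5.30 and -5.21 depend on the constant added, and no fold is given. The median over the 9 genes was -3.07, against -1.02 over all genes tested.

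Under stress QJ leaves were still below LJ leaves, by less than in the controls, as the interaction above also measures. Of the 7 genes listed, 3 met the filter, all 3 lower in stressed QJ than in stressed LJ leaves and passing, where 99.4% of the 5662 genes tested passed and 65.4% passed with QJ lower. The log2 difference of stressed QJ minus stressed LJ leaves was -1.82 for MADS14 (SE 0.0395, adjusted p = 1.89e-09), 3.52-fold lower in QJ. It was -1.69 for LHS1 (SE 0.0952, adjusted p = 5.27e-07), 3.22-fold lower. SPW1 had -0.71 (SE 0.0758, adjusted p = 2.98e-05), 1.64-fold lower, the smallest gap of the 3. In the fit of all 4 groups, the 4 genes under the filter were also lower in stressed QJ leaves and passed, with differences from -0.37 for DL to -0.97 for MFO1, where 60.5% of all genes in that fit passed with QJ lower. With each library centred on its median, DL was at -0.18 and no longer passed (adjusted p = 0.0581). All 4 were at most 1.41 FPKM in every library of both stressed groups.

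Some pairs of related floral genes did not keep a constant ratio between stressed and control LJ leaves, while the ratios of others overlapped. In LJ leaves SPW1 was 59.6 ± 11.9 times the level of its B-type partner OsMADS4 under stress and 4.66 ± 0.314 times in controls (SD, n = 3 each). SPW1 was likewise 16.9 ± 3.42 times OsMADS2, the other PISTILLATA-type gene, in stressed LJ leaves and 1.33 ± 0.120 times in LJ controls. The ranges of the stressed and control libraries did not overlap in either case, although an exact permutation test of 3 against 3 libraries cannot give a two-sided p under 0.1. OsMADS4 was at most 0.52 FPKM and DL at most 0.45 FPKM in stressed LJ leaves, so ratios over them there rest on levels near 0. With that limit, OsMADS2 over OsMADS4 overlapped, at 2.54 to 5.24 in stressed LJ leaves and 3.44 to 3.62 in LJ controls. MFO1 over MADS17, also near 0 under stress, overlapped too, at 1.49 to 2.61 in stressed LJ leaves and 1.96 to 2.44 in LJ controls. LHS1 and DL, which are neighbours in gene order in the RefSeq annotation, were at a ratio of 22.3 to 44.1 in stressed LJ leaves and 9.29 to 9.94 in LJ controls. MADS14 was 3.33 ± 0.12 times another APETALA1-like gene, DEP, in stressed LJ leaves and 2.46 ± 0.067 times in LJ controls. The same ratio was 16.0 ± 3.09 in stressed QJ leaves and 24.0 ± 2.86 in QJ controls, so that the QJ leaves had MADS14 with little DEP.

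The tables list 8 other floral MADS-box genes, all 8 with their highest mean in the LJ controls. The 5 that could be tested in stressed against control LJ leaves were lower and passed, at a median of -2.31, where 50% of all genes tested passed as lower. The 6 tested between QJ and LJ controls were lower in QJ and passed, at a median of -3.62, where 68.6% of all genes passed as lower. Of these, 2 of the 5 and 5 of the 6 met the filter only through the LJ controls and had to be lower. DEP (Os07g0108900), known for its role in the palea, averaged 2.73 FPKM in stressed QJ leaves, 1.74 FPKM in QJ controls, 46.2 FPKM in stressed LJ leaves and 82.9 FPKM in LJ controls. It was the one that kept most of its level under stress in LJ, at 55.8%. OsMADS2 averaged 0.537 FPKM in stressed QJ leaves, 0.467 FPKM in QJ controls, 1.54 FPKM in stressed LJ leaves and 31.2 FPKM in LJ controls. MADS34, a SEPALLATA-like gene of inflorescence branching that lies next to MADS14 in gene order, averaged 0.103 FPKM in stressed QJ leaves, 0.04 FPKM in QJ controls, 2.54 FPKM in stressed LJ leaves and 13.7 FPKM in LJ controls. MADS17, the second AGL6-type gene, averaged 0.0633 FPKM in stressed QJ leaves, 0.03 FPKM in QJ controls, 0.66 FPKM in stressed LJ leaves and 10.1 FPKM in LJ controls. DEP and OsMADS5 rose in stressed QJ leaves in the fit of all 4 groups (adjusted p = 0.00112 and 0.0277), DEP by 0.45 and OsMADS5 by 0.42, and the other 3 tested there did not pass. With each library centred on its median, DEP (0.18, adjusted p = 0.1) and OsMADS5 (0.16, adjusted p = 0.349) did not pass and the other 3 turned to the negative side without passing. In the interaction all 5 had the higher change in QJ and passed, where 41.4% of the 5170 genes tested passed with QJ higher. Their median was 2.14, against 0.21 over all genes tested. MADS17 entered this test only through the LJ controls, so its difference had to appear.

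Genes of inflorescence and floral meristems were more mixed. Of the 13 listed, 10 have values in the LJ controls and another group, and 8 of those 10 had their highest mean in the LJ controls. The 5 tested in stressed against control LJ leaves were lower and passed, against 50% of all genes, and the 6 tested between controls were lower in QJ and passed, against 68.6%. Of these, 2 of the 5 and 5 of the 6 met the filter only through the LJ controls. Rcn3, a relative of TERMINAL FLOWER, and RFL went the other way. Rcn3 averaged 1.08 FPKM in stressed LJ leaves and 0.623 FPKM in LJ controls. RFL averaged 0.183 FPKM in stressed LJ leaves and was listed at 0 in LJ controls. Neither was tested in stressed against control LJ leaves. OsULT1, which has no LJ values, averaged 31.8 FPKM in stressed QJ leaves and 13.9 FPKM in QJ controls. It rose by 1.14 on the log2 scale by limma (adjusted p = 2.7e-07), where 99.7% of the 3641 genes tested passed. OSH15, a KNOX gene that keeps shoot meristem cells undifferentiated, averaged 0.0333 FPKM in stressed QJ leaves and was listed at 0 in QJ controls, against 4.07 FPKM in stressed LJ leaves and 14.4 FPKM in LJ controls. OSH1, the related KNOX gene, was listed at 0 in stressed QJ leaves and averaged 0.0167 FPKM in QJ controls, 1.36 FPKM in stressed LJ leaves and 8.93 FPKM in LJ controls. FOR1, known for controlling flower organ number, averaged 7.80 FPKM in stressed QJ leaves, 14.8 FPKM in QJ controls, 12.2 FPKM in stressed LJ leaves and 33.8 FPKM in LJ controls. The family of DL gave 5 other listed genes, of which the 4 tested fell in stressed LJ leaves and the 4 tested were lower in QJ than in LJ controls (3 of 4 passed with each library centred on its median), against the same 50% and 68.6% of all genes. In each of these comparisons 2 of the 4 met the filter only through the LJ controls. YAB1 averaged 2.06 FPKM in stressed QJ leaves, 6.72 FPKM in QJ controls, 2.76 FPKM in stressed LJ leaves and 125 FPKM in LJ controls, so it kept 2.20% of its LJ control level under stress. OsYAB6 averaged 12.4 FPKM in QJ controls, 10.6 FPKM in stressed LJ leaves and 29.8 FPKM in LJ controls, and YAB3 and YAB4 averaged at most 1.55 FPKM in any group. Unlike DL, YAB1 was well above 1 FPKM in QJ controls too, and it fell by 1.33 on the log2 scale in stressed QJ leaves (adjusted p = 1.93e-05), in a table where 99.7% of the 3641 genes tested passed.

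Markers of anthers were also highest in LJ controls. Of 22 listed anther genes, 21 had their highest mean in the LJ controls, a count with no share over all listed genes to set it against. In stressed against control LJ leaves 13 of the 14 tested were lower and passed and 1, EAT1, was higher, at a median of -1.69, where 50% of all genes passed as lower. All 14 tested between controls were lower in QJ and passed (12 of 14 with each library centred on its median), where 68.6% of all genes passed as lower. Of the 14 in each comparison, 11 in stressed LJ leaves and 13 between controls met the filter only through the LJ controls. The summed level of the 7 anther genes with values in every library was 0.79 to 1.1 FPKM in stressed QJ leaves, 1.97 to 2.5 FPKM in QJ controls, 8.92 to 9.64 FPKM in stressed LJ leaves and 191 to 196 FPKM in LJ controls. The sum in LJ controls was mostly OSC6, at a mean of 154 FPKM. In stressed LJ leaves it was mostly EAT1 (3.88 FPKM) and OsAP25 (2.41 FPKM), so the sum does not show the 7 moving together. The 4 anther genes given next have the highest group means of the list, a choice that favours large differences between groups. OSC6 was listed at 0 in stressed QJ leaves and averaged 0.0367 FPKM in QJ controls. In LJ, OSC6 averaged 0.597 FPKM in stressed leaves and 154 FPKM in controls. WDA1 averaged 0.06 FPKM in stressed QJ leaves, was listed at 0 in QJ controls, and averaged 0.41 FPKM in stressed LJ leaves and 21.4 FPKM in LJ controls. YY1 averaged 0.603 FPKM in QJ controls, 1.7 FPKM in stressed LJ leaves and 45.6 FPKM in LJ controls, and RTS was listed at 0 in QJ controls and stressed LJ leaves, against 122 FPKM in LJ controls. Leaf markers were present in all groups. The 7 genes of photosynthesis with values in every library summed to 1861 to 1895 FPKM in stressed QJ leaves, 6952 to 7235 FPKM in QJ controls, 765 to 767 FPKM in stressed LJ leaves and 5213 to 5243 FPKM in LJ controls. The largest part of the QJ control sum was 1 RBCS gene (Os12g0274700), at 3727 FPKM against 1284 FPKM in LJ controls. In the fit of all 4 groups, 4 of the 7 were higher and 3 lower in QJ than in LJ controls. Of all 5170 genes in that fit, 1613 passed as higher and 2999 as lower. RbcS3, at 6799 FPKM in LJ controls, has no QJ values and is not in the sums. All 9 listed leaf markers fell in stressed LJ leaves and passed, where 50% of the 5990 genes tested passed as lower. The 7 listed for QJ fell in stressed QJ leaves and passed, where 49.1% of the 3629 genes that passed were lower. The part of other tissue in the levels of the floral genes was not tested.

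**Figure D4:**
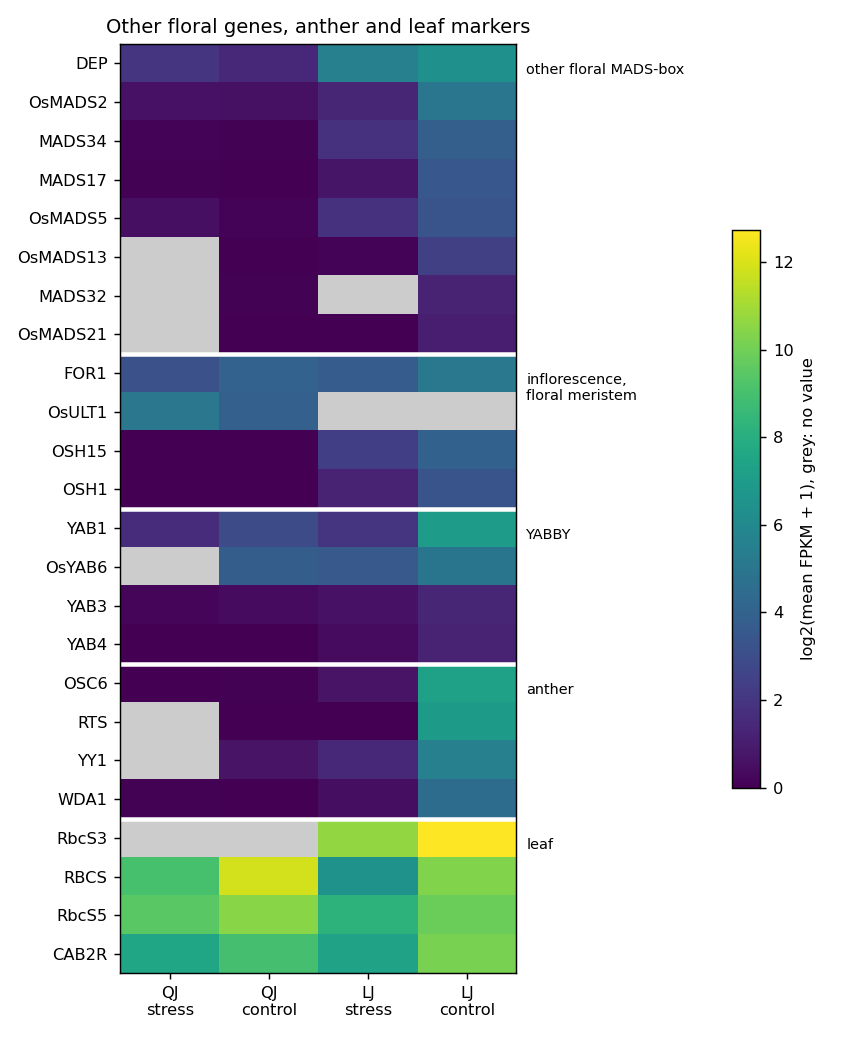
Group mean FPKM, as log2(mean FPKM + 1) by colour from dark (low) to yellow (high), of the most abundant listed genes of 5 lists (other floral MADS-box, inflorescence and floral meristem, YABBY, anther, leaf), with stressed QJ, QJ controls, stressed LJ and LJ controls from left to right and grey cells where there is no value. The LJ control column is the brightest of its row for OsMADS2 (31.2 FPKM), YAB1 (125 FPKM) and RTS (122 FPKM), while RBCS is brightest in QJ controls (3727 FPKM).

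The genes most like each floral gene were found by Pearson's r on log2(FPKM + 1), among named genes with a mean of at least 5 FPKM in 1 group. The libraries are the same for every pair and fall into 4 groups, so a high r says mainly that the group means have the same shape. For OsMADS7, over 12 libraries and 1808 genes, the 3 highest were VLN1 (0.999), prx39 (0.998) and OJ991214_12.17 (0.997), and 28 genes reached 0.99. OsMADS24 was most like prx39, Pox1(Px and WDA1, and DL most like OSC6, Pox1(Px and BC1. MFO1 was most like OsTPS14, OsALDH3B1 and its AGL6-type relative MADS17 (0.997). LHS1 was most like OsRPK1, P0498E12.111 and PFL. MADS14 was most like P0450B04.20-1, DEP (0.997) and FATB1, genes that were present in QJ leaves and highest in LJ controls. SPW1 stood more alone, since no gene reached 0.99 with it, and ADH1, OSJNBb0046O12.20 and OsSTA278 came nearest, just under it. Over the 9 libraries without stressed QJ leaves, and 2062 genes, OsMADS4 was most like OsPP14, OsOSC12/OsPTS1 and OSJNBa0031A07.3, with 60 genes at 0.99 or more, and MADS58 most like Lac, OSC6 and OsTBL52, with 121.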

How the data were processed

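Total RNA of 12 leaf libraries was sequenced on the NovaSeq X Plus, per the labels' protocols. The authors deposited 4 tables of FPKM values, each with a fold change as a linear ratio, a log2 fold change and p-values, cut at an adjusted p of 0.05 and an absolute log2 change of 1, as the values in them show. Aligner, counter, genome build and annotation were not given in the sources used here, and read totals are unknown, so the precision that depth gives cannot be stated. Among genes of 0.15 to 1.2 FPKM, the commonest ratio between 2 libraries of a group was 0.966 to 1.03. All 9 genes matched 1 gene each in RefSeq, which was used for synonyms and gene order only.

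Each table was fitted with limma 3.58.1 in R 4.3.3 (trended prior) on log2(FPKM + 1), for genes with at least 1 FPKM in 3 libraries, without a covariate, with Benjamini-Hochberg adjustment and a threshold of 0.05. The interaction used the genes with values in all 12 libraries. The single fit of all 4 groups was added after the data had been seen. The fits were tested on simulated data first. No fold between groups is given against a mean under 1 FPKM. The floral genes and the gene lists were chosen with earlier results of these data known. Every floral gene is given in full. Of each list, up to 4 genes with the highest mean in any group are named, and for likeness the 3 highest. Genes named beyond that rule (OsMADS5, EAT1, OsAP25, Rcn3, RFL, Hd3a) were chosen after their values were seen. Names that belong to other genes (PAP2, Fd1, OsCP1) were taken out of the lists after their values had been seen. The alternatives tried were other pseudocounts and filters, median centring, a replicate block and leaving out each library.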

Additional observations from a re-analysis of the deposited data

Results flagged for a closer look

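For all 7 floral organ identity genes with values in every library, the interaction test in limma found that the change under stress differed between QJ and LJ. OsMADS24, OsMADS7, MFO1 and DL (4 of the 7) met the filter on low values only through the LJ controls, so that for them a difference had to appear. The difference, QJ minus LJ on the log2 scale, was 4.53 for OsMADS24 (SE 0.119, adjusted p = 5.57e-12), 4.38 for OsMADS7 (SE 0.162, adjusted p = 1.45e-10) and 3.39 for MFO1 (SE 0.141, adjusted p = 4.25e-10). It was 3.32 for LHS1 (SE 0.135, adjusted p = 3.54e-10) and 2.69 for DL (SE 0.118, adjusted p = 6.85e-10). SPW1 had a difference of 1.45 (SE 0.103, adjusted p = 7.21e-08), with stressed leaves above controls in 3 of 3 QJ libraries and below controls in 3 of 3 LJ libraries. MADS14 had the smallest, 0.47 (SE 0.0781, adjusted p = 0.00017), and it is the one of the 7 that did not pass when each library was centred on its median. All groups hold 3 libraries, too few to look for single libraries that stand apart.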

How the results depend on the processing

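Apart from the values named here, the direction and the call of each floral gene in the fits of the 4 tables and in the interaction were as reported in all other alternatives run. In the fit of all 4 groups, the small differences in QJ under stress changed sign as given in the report. In stressed against control QJ leaves, 0 of the floral genes are in the authors' table, and so 0 could be tested by limma there at any p, while 2 passed in the fit of all 4 groups. Between stressed QJ and stressed LJ leaves, the 3 genes that passed became 7 without the filter on low values and 7 in the fit of all 4 groups. A cut of 0.5 FPKM in place of 1 FPKM left 3 genes restricted to the LJ controls in place of 5, a cut of 2 FPKM gave 6 with MFO1 added, and leaving out 1 library gave 4 to 5, with 4 only without stressed LJ library 3. Centring each library on its median lowered the difference of stress changes for MADS14 to 0.17, with adjusted p = 0.09. It moved the median over all genes by -0.32 for stress in QJ, 0.06 for stress in LJ, 0.60 between controls, 0.15 between stressed leaves and -0.30 for the interaction, where the calls went to 1405 higher and 1827 lower in place of 2140 and 1291. In the fit of all 4 groups, the lower level of DL in stressed QJ than in stressed LJ leaves passed in 19 of 20 settings, the exception being median centring, with an adjusted p of 0.0581. Leaving out each library in turn kept 7 genes passing for stress in LJ, 9 between controls, 3 between stressed leaves and 7 for the interaction. Same-numbered libraries of different groups did not deviate together (correlations from -0.0612 to 0.0634). That cannot show whether they were grown or handled together. A fit with the replicate block gave 7, 9, 3 and 7 passing genes in the same 4 comparisons. With the block, 3628, 5973, 6092 and 5638 genes passed in the 4 tables and 3437 in the interaction, in place of 3629, 5970, 6088, 5629 and 3431. Unknown read totals limit what can be said of levels near 0.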

Other observations

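Genes of flowering time, which act in leaves ahead of the floral organ genes, were mixed in direction. Of 10 listed, 7 were tested between controls, with 3 higher and 4 lower in QJ, where 68.6% of all genes tested passed as lower. With each library centred on its median, 3 passed as higher and 3 as lower. The 3 tested in stressed against control LJ leaves split into 2 higher and 1 lower, at a median of 0.95, where 50% of all genes passed as lower. Hd3a, the florigen gene that turns on MADS14 and its relatives, was listed at 0 in QJ controls and averaged 0.327 FPKM in stressed LJ leaves and 2.69 FPKM in LJ controls. It was chosen after its values were seen. It was lower in stressed than in control LJ leaves by limma (log2 difference -1.48, adjusted p = 6.27e-06). Hd3a met the filter of 1 FPKM in 3 libraries only through the LJ controls, however, and so had to be lower. Between controls, 3 of the 7 flowering time genes tested also met it only through the LJ controls. OsCOL4, a CONSTANS-like repressor of flowering, averaged 86.2 FPKM in stressed QJ leaves, 24.6 FPKM in QJ controls, 12.4 FPKM in stressed LJ leaves and 7.35 FPKM in LJ controls. It rose in stressed QJ leaves by 1.77 on the log2 scale by limma (adjusted p = 5.52e-09), where 99.7% of the 3641 genes tested passed. OsCOL10, of the same family, averaged 47.3 FPKM in stressed QJ leaves, 67.8 FPKM in QJ controls, 15.5 FPKM in stressed LJ leaves and 28.6 FPKM in LJ controls. EHD3 averaged 11.9 FPKM in stressed LJ leaves and 5.7 FPKM in LJ controls. HD6, a casein kinase subunit of the photoperiod pathway, averaged 20.1 FPKM in stressed QJ leaves, 22.5 FPKM in QJ controls, 71.5 FPKM in stressed LJ leaves and 58.2 FPKM in LJ controls.

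MADS-box genes outside flower organ identity were listed in small number, 5 of those searched for. OsMADS47 averaged 22.9 FPKM in stressed LJ leaves and 12.7 FPKM in LJ controls. It rose there by 0.80 on the log2 scale by limma (adjusted p = 4.83e-05), where 99.7% of the 5990 genes tested passed. MADS26, a gene of stress and defence, averaged 18.7 FPKM in stressed QJ leaves, 6.04 FPKM in QJ controls and 12.7 FPKM in LJ controls. It rose in stressed QJ leaves by 1.48 on the log2 scale by limma (SE 0.103, adjusted p = 2.46e-06), in a table where 99.7% of the 3641 genes tested passed. OsMADS27 averaged 17.6 FPKM in QJ controls and 7.76 FPKM in LJ controls. OsMADS37 averaged 0.737 FPKM in QJ controls, 0.137 FPKM in stressed LJ leaves and 2.04 FPKM in LJ controls.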
